A study of Mus musculus with 12 samples.

Results

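Expression of 10 genes of the innate sensing system was followed across the epididymal white adipose tissue (eWAT) libraries: the surface receptors Tlr1, Tlr2, Tlr4 and Tlr6, the endosomal receptors Tlr7, Tlr8, Tlr9 and Tlr13, the co-receptor Cd14 and the adaptor Myd88. They were taken by symbol from the expression table, and all 10 of 10 were found among its 23474 genes. The rule used symbols and no measured value. All 10 had a mean of at least 1 FPKM (fragments per unit of transcript length and of library depth) in each of the 6 comparisons below.

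Toll-like receptors (TLRs) recognise conserved microbial molecules and some products of damaged host cells. The surface receptors bind lipids and lipoproteins, whereas the endosomal receptors bind nucleic acids that a cell has taken up. Most of them signal through Myd88, which recruits IRAK kinases and leads to the activation of NF-kB and interferon regulatory factors and to the production of inflammatory cytokines. In adipose tissue they are carried mainly by macrophages, and Tlr4 also by adipocytes and endothelial cells.

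All mice were male C57BL/6J animals that started their diets at 5 weeks of age, ate them for 12 weeks and were 17 weeks old when sampled. The ND group received the normal diet, the HFD group the high-fat diet, the GT group the high-fat diet with 0.25% (w/w) of an ethanol extract of green tea, and the TJ group the high-fat diet with 3% (w/w) of the herbal preparation named Taeeumjowitang in the labels. The HFD, GT and TJ groups thus shared the high-fat diet and only the ND group lacked it. Each group of 10 mice was represented by 3 libraries of whole tissue, and the study's methods describe the HFD and TJ libraries as coming from 3 randomly selected mice of each group. For ND and GT the source of each library is not given in the sources used here, so p-values there measure the spread between libraries.

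The sequences directly before the transcription start of the 3 genes that rose past the threshold with the HFD are shown, because these members moved together and in the same direction. They were read from RefSeq promoter windows (GRCm38.p6), which run from 250 bases before to 50 after a gene's start, and the bases printed end before this start or, where the gene's annotated start lies further upstream, before that one, so that 245 bases are shown for Tlr1, 250 for Tlr8 and 179 for Tlr13. Each is given on the strand of its gene from 5′ to 3′, and capitals mark a match to the PU.1 motif GAGGAAGT, a motif of the macrophage transcription factor PU.1. Tlr1 is at chr5:64933564-64933808 (minus strand), Tlr8 at chrX:167264330-167264579 (minus strand) and Tlr13 at chrX:106143025-106143203 (plus strand).
Tlr1: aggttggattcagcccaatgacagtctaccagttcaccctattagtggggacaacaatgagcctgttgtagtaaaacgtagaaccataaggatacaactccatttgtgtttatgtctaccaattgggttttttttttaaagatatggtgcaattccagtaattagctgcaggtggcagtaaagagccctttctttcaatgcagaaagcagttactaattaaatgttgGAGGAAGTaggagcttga
Tlr8: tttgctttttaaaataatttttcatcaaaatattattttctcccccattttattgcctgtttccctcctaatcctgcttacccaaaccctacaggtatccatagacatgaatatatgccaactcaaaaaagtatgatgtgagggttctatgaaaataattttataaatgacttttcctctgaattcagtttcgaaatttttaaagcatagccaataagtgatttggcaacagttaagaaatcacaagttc
Tlr13: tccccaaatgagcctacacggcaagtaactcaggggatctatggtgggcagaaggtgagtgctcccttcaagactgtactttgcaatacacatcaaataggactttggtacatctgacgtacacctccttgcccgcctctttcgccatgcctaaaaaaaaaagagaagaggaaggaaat

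Windows were found for 7 of the 10 genes, 9 windows in all, and none for Tlr4, Tlr7 and Cd14. GAGGAAGT was searched on both strands, and 3.2% of the 32851 windows of all genes held it. Among the members it occurred in the window of Tlr1, on the gene's strand with its first base at position -23 from the RefSeq start, and in that of Tlr9, on the other strand and starting at position 10 after the start. GGGNNTTTC, the first 9 letters of a kB site bound by NF-kB, was in 4.36% of all windows and in no window of a member. A match of letters is a description of the sequence and not a measured binding site.

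The deposited values hold no counts, and the steps between low values gave an approximate depth of 9.97M to 16.1M fragments per library in ND, 14.3M to 18.9M in HFD, 15.5M to 18.9M in GT and 15.5M to 17.5M in TJ. ND replicate 1 stood apart from the other libraries. Its 6 adipocyte markers summed to 801.4 FPKM against 9171.6 and 8343.3 in ND replicates 2 and 3, so the defining markers of the labelled tissue were low there. Its 5 testis germ cell markers summed to 93445.3 FPKM, against 134.0 and 2401.8 in the other ND libraries and at most 1782.7 in HFD, GT and TJ, and its 6 epididymis markers to 12818.2 FPKM, against at most 1274.6 elsewhere. All 10 genes had their lowest ND value in this library, and for each comparison with ND the count of genes that passed is therefore also given without it. Within TJ, replicate 2 was the lowest for all 10 genes, and within GT, replicate 3 was. The 10 macrophage markers (Adgre1, Cd68, Csf1r, Mertk, Lyz2, Itgam, Fcgr1, C1qa, C1qb and C1qc) were likewise lowest in these 3 libraries of their groups, with sums of 185.1 FPKM in ND replicate 1, 1473.7 in GT replicate 3 and 1071.1 in TJ replicate 2. GT replicate 3 and TJ replicate 2 also had the highest adipocyte sums of their groups (8466.0 and 10645.7 FPKM) and the highest mesothelial sums (11.4 and 14.6). The B cell sum of TJ replicate 2 was the highest in TJ (9.11).

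Among the surface receptors, Tlr1 (chr5:64924679-64933563, minus strand, GRCm38), which pairs with Tlr2 to bind triacylated lipopeptides, had FPKM values of 0.113, 0.768 and 0.812 in ND replicates 1 to 3, 13.2, 12.3 and 12.1 in HFD, 9.07, 6.85 and 3.71 in GT, and 5.31, 1.73 and 5.26 in TJ. The HFD libraries lay close together and above all others, and those of GT and TJ overlapped. Its neighbour Tlr6 (chr5:64952031-64960097, minus strand), which pairs with Tlr2 to bind diacylated lipopeptides, measured 0.0747, 1.14 and 1.14 FPKM in ND, 4.21, 4.87 and 6.18 in HFD, 4.15, 3.3 and 2.09 in GT, and 1.78, 0.589 and 2.61 in TJ. The highest GT library was just under the lowest HFD library, and TJ overlapped both GT and ND. Tlr1 and Tlr6 are close relatives, and 7.89% of the 100-base windows of Tlr1 transcripts and 7.09% of those of Tlr6 occur in the other gene, so a small part of their reads could have been assigned to either.

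Tlr2 (chr3:83836272-83841767, minus strand), the shared partner of those receptors, measured 0.307, 2.69 and 1.75 FPKM in ND, 7.84, 7.9 and 8.16 in HFD, 5.64, 5.27 and 3.49 in GT, and 3.39, 2.49 and 4.59 in TJ. Its HFD libraries were nearly identical, with a mean of 7.97 ± 0.171 FPKM (SD, n = 3), and stood above every other library. Tlr4 (chr4:66827584-66930284, plus strand), the receptor for bacterial lipopolysaccharide, measured 0.328, 11.1 and 8.08 FPKM in ND, 11.9, 17.4 and 16.1 in HFD, 10.8, 11.5 and 9.46 in GT, and 5.66, 4.4 and 7.54 in TJ. ND replicate 2 lay within the GT range and ND replicate 3 below it, and both were above every TJ library. It was the only member whose TJ mean (5.87 FPKM) lay under its ND mean (6.51).

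Among the endosomal receptors, Tlr8 (chrX:167242696-167264329, minus strand), a sensor of RNA breakdown products, measured 0.0274, 2.44 and 2.91 FPKM in ND, 30.4, 42.7 and 42.2 in HFD, 26.9, 22.2 and 12.2 in GT, and 7.7, 0.682 and 11.1 in TJ. Tlr13 (chrX:106143204-106160493, plus strand), a sensor of bacterial ribosomal RNA, measured 0.0425, 0.487 and 0.544 FPKM in ND, 30.3, 32.9 and 41.0 in HFD, 21.3, 14.7 and 5.5 in GT, and 9.03, 0.691 and 7.66 in TJ. These 2 were at the head of the 10 genes in HFD, with means of 38.4 ± 6.97 and 34.7 ± 5.61 FPKM, whereas in ND Tlr13 had the lowest mean of all 10 (0.358 FPKM). FPKM is per length of transcript, so these levels can be ranked between genes. The TJ libraries of both genes were uneven, and replicate 2 fell within the ND range of Tlr8.

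Tlr7 (chrX:167304929-167330558, minus strand), the receptor for single-stranded RNA that lies next to Tlr8, measured 0.141, 2.54 and 1.89 FPKM in ND, 9.6, 15.2 and 12.7 in HFD, 8.99, 7.99 and 4.5 in GT, and 4.13, 1.49 and 4.03 in TJ. Every HFD library was above every GT library, and every GT library above every TJ library. Tlr9 (chr9:106222598-106226883, plus strand), the receptor for unmethylated CpG DNA, was the lowest of the 10 in HFD, GT and TJ, with 2.77, 3.34 and 3.45 FPKM in HFD, 2.98, 3.11 and 1.75 in GT, and 1.4, 0.292 and 1.68 in TJ. In ND it measured 0.752, 0.91 and 1.51 FPKM, so that ND and TJ overlapped.

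Cd14 (chr18:36725067-36726798, minus strand), which passes lipopolysaccharide to Tlr4, measured 3.31, 12.7 and 9.94 FPKM in ND, 34.9, 25.8 and 39.7 in HFD, 26.8, 22.9 and 13.4 in GT, and 17.4, 13.6 and 17.3 in TJ. Myd88 (chr9:119335934-119341411, minus strand) had 9.56, 10.4 and 11.0 FPKM in ND, 17.9, 15.9 and 17.1 in HFD, 15.7, 15.0 and 12.5 in GT, and 16.8, 16.2 and 16.5 in TJ. Its spread within a group was small (SD 0.313 to 1.69 FPKM), and its TJ libraries lay inside the range of its HFD libraries. An exon of Myd88 overlaps Acaa1a on the opposite strand, and since no source used here says whether counting used strand, reads of the pair may not be separable. The group means fell in the order HFD, GT, TJ, ND for 8 of the 10 genes. The exceptions were Tlr4, with ND above TJ, and Myd88, with TJ above GT.

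**Figure D1:**
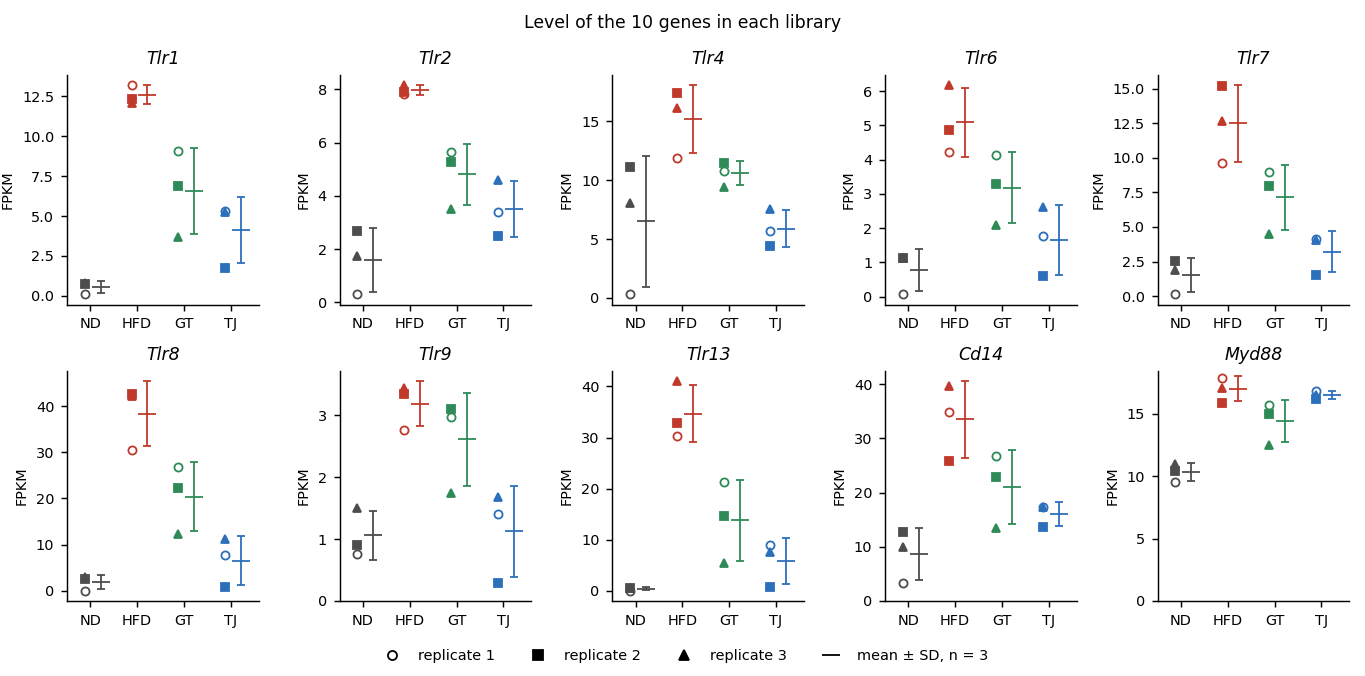
FPKM of the 10 genes (vertical axes, linear and with a separate range in each panel) in the 3 libraries of ND, HFD, GT and TJ, with the mean ± SD (n = 3) beside the points. ND replicate 1 (open grey circle), GT replicate 3 (green triangle) and TJ replicate 2 (blue square) were the lowest libraries of their groups for all 10 genes, and the TJ libraries reached the HFD level only for Myd88.

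Effects of the HFD were examined by comparing the HFD with the ND libraries. All 10 genes were higher in every HFD library than in every ND library, which held for 20.5% of the 14430 genes tested. Of the 10, Tlr13, Tlr1 and Tlr8 rose past the threshold used throughout, a Benjamini-Hochberg adjusted p-value under 0.05 in limma's two-sided test together with at least a 1.5-fold change, which 1.73% of all genes passed upward. The mean FPKM of Tlr13 was 97.0-fold higher in HFD than in ND (67.3-fold without ND replicate 1), that of Tlr1 22.3-fold (15.9-fold) and that of Tlr8 21.4-fold (14.3-fold). On the log2(FPKM + 1) scale, which understates the change of low genes, Tlr13 rose by 4.73 ± 0.32 (SE, adjusted p = 0.00683), Tlr8 by 4.02 ± 0.57 (adjusted p = 0.0362) and Tlr1 by 3.15 ± 0.33 (adjusted p = 0.0208). Leaving out a library changed these calls: 1 of the 10 genes passed without ND replicate 2 or 3, where 24 of 14577 and 23 of 14322 genes passed upward. Without HFD replicate 1, 2 or 3, 0 of the 10 passed in limma and no other gene of the table did either, with 843 to 982 genes of the table and 7 of the 10 at an unadjusted p under 0.05. In whole tissue, more cells that carry a transcript and more transcript per cell cannot be told apart, and the same holds for every decrease below.

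The other 7 genes did not pass. Their log2 differences ran from 0.67 for Myd88 (95% confidence interval 0.06 to 1.28, adjusted p = 0.384) to 2.55 for Tlr7 (1.31 to 3.8, adjusted p = 0.0865), and 9 of the 10 genes had an unadjusted p under 0.05, as had 1672 of the 14430 genes tested. Over the 10 genes the median log2 difference was 1.94, against 0.07 over all genes tested. The interval of Tlr4 ran from -0.51 to 3.71 around 1.6 (adjusted p = 0.494).

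Without ND replicate 1, 8 of the 10 genes passed, against 11.0% of the 13661 genes tested. Tlr13 was then higher in HFD by 4.55 ± 0.18 (adjusted p = 0.000707), Tlr8 by 3.41 ± 0.2, Tlr1 by 2.92 ± 0.16, Tlr7 by 2.06 ± 0.24, Tlr2 and Tlr6 by 1.49 each, Cd14 by 1.47 ± 0.22 and Myd88 by 0.62 ± 0.12 (adjusted p = 0.0307). Tlr4 and Tlr9 stayed outside the threshold, and the difference of Tlr4 shrank from 1.6 to 0.61 (adjusted p = 0.141). With the replicate number as a block and all 6 libraries, 0 of the 10 genes passed in limma while 7 had an unadjusted p under 0.05, and no other gene of the table passed either (2239 at an unadjusted p under 0.05). Of the 10 macrophage markers 5 rose with the HFD, 9 without ND replicate 1, and their sum ran from 185.1 to 721.8 FPKM in ND and from 3501.6 to 4925.4 in HFD. Without ND replicate 1, 5 of the 6 adipocyte markers (median log2 difference -1.0) and 3 of the 4 mesothelial markers (median -1.48) also fell with the HFD, as did 593 of the 13661 genes tested. Of 5 adipose progenitor markers 1 rose there (median -0.18, highest 0.9). The 7 neutrophil markers summed to 4.95 to 10.7 FPKM in ND and 53.3 to 62.7 in HFD, and S100a8, the only one of them tested, passed upward at 2.6 without ND replicate 1 (3.67 and adjusted p = 0.155 with all libraries). Ly6g, Mpo, Elane, Cxcr2 and Retnlg did not separate HFD from ND with all libraries. The part of these markers in the result was not tested.

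Supplements to the HFD were compared with the HFD alone. With green tea extract, every GT library was below every HFD library for 8 of the 10 genes, all but Tlr9 and Cd14, where 24.4% of the 12766 genes tested did the same. None of the 10 passed the threshold in limma, which 1.81% of all genes passed downward, although 8 had an unadjusted p under 0.05, as had 3744 of the 12766 genes tested. The log2 differences ran from -0.23 for Tlr9 (95% confidence interval -0.69 to 0.23, and 0.05 after quantile normalization) and Myd88 (-0.23, interval -0.49 to 0.04) to -1.43 for Tlr13 (-2.43 to -0.43, adjusted p = 0.0891), and these were -0.05 for Tlr9 and -0.92 for Tlr13 without GT replicate 3. Tlr2 came nearest to the threshold, with -0.65 ± 0.16 and an adjusted p of 0.0647. The median over the 10 genes was -0.66 against -0.12 over all genes, and without GT replicate 3 it was -0.44, with 5 of the 10 and 2680 of 12857 genes at an unadjusted p under 0.05. Macrophage markers summed to 1473.7 to 3237.1 FPKM in GT, and 0 of the 10 passed the threshold while 8 had an unadjusted p under 0.05. Of the adipocyte markers 3 of 6 rose with GT (median 0.94), as did 233 of 12766 genes, and of the adipose progenitor markers 2 of 5 fell (median -0.34), as did 231. None of either list passed in limma without GT replicate 3, where 6 and 3 had an unadjusted p under 0.05. The sums of 5 dendritic cell markers did not overlap, with 8.94 to 12.7 FPKM in HFD and 15.0 to 19.0 in GT. Of these 5 markers 2 were tested (median log2 difference 0.64), and 0 passed in limma while 2 had an unadjusted p under 0.05. The part of all these markers in the result was not tested.

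With TJ, 8 of the 10 genes fell past the threshold, against 11.1% of the 12807 genes tested. None passed in limma with no filter on low genes or with all 12 libraries in 1 fit, where 9 and 8 of the 10 had an unadjusted p under 0.05, as had 5910 of 20343 and 2104 of 13935 genes. For 9 of the 10, every TJ library was below every HFD library, as was the case for 31.4% of all genes. Tlr13 fell by 2.75 on the log2 scale (SE 0.64, adjusted p = 0.034) and Tlr8 by 2.79 (SE 0.68, adjusted p = 0.0375), and their means in HFD were 5.99-fold and 5.9-fold those in TJ. Tlr7 fell by 1.73 (SE 0.31, adjusted p = 0.0248), Tlr1 by 1.51 (SE 0.32), Tlr6 by 1.26 (SE 0.32), Tlr4 by 1.24 (SE 0.22), Tlr2 by 1.02 (SE 0.19) and Cd14 by 1.0 (SE 0.19), which correspond to means that were 2.08-fold (Cd14) to 3.89-fold (Tlr7) higher in HFD. Tlr9 narrowly missed the threshold, with -1.04 ± 0.31 and an adjusted p of 0.052.

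Myd88 did not follow the receptors. Its mean was 17.0 ± 1.01 FPKM in HFD and 16.5 ± 0.313 in TJ, and the log2 difference was -0.04 with a 95% confidence interval of -0.31 to 0.23 (adjusted p = 0.808), and 0.10 and 0.09 after median-of-ratios scaling and quantile normalization. For the 8 genes that fell, the interval bound nearest 0 was between -0.51 (Tlr6) and -1.24 (Tlr13). Over the 10 genes the median was -1.25, against -0.14 over all genes. Without TJ replicate 2, Tlr9 also passed and 9 of the 10 genes were lower, against 9.53% of all genes, with Tlr13 at -1.93 ± 0.16 and Tlr8 at -1.92 ± 0.21. When HFD replicate 1, 2 or 3 or TJ replicate 1 was left out, 0 of the 10 passed in limma and no other gene of the table did, while 3732 to 4735 genes of the table and 9 of the 10 had an unadjusted p under 0.05 each time and Tlr13 and Tlr8 kept differences within -3.21 to -1.93 and -3.35 to -1.92, their ranges over all alternatives. Of the macrophage markers 8 of 10 fell with TJ, with a median log2 difference of -1.25 and sums of 1071.1 to 2557.3 FPKM, and all 6 adipocyte markers rose, from sums of 3444.8 to 3772.2 FPKM in HFD to 6576.0 to 10645.7 in TJ. The adipose progenitor marker Pdgfra fell by 1.32 (1 of 5 markers, and 2 of 5 with Pi16 at -1.72 without TJ replicate 2) and the mesothelial marker Wt1 by 0.85 (1 of 3 tested). The sums of 3 T cell, 4 B cell and 5 dendritic cell markers did not overlap, with 1.11 to 1.47, 2.69 to 3.4 and 8.94 to 12.7 FPKM in HFD and 3.04 to 4.06, 3.92 to 9.11 and 15.5 to 21.4 in TJ, but none of the 5 of these markers that were tested passed in limma (3 had an unadjusted p under 0.05). Without TJ replicate 2 the dendritic cell marker Zbtb46 passed at 0.67 (adjusted p = 0.0409). The endothelial sums (188.0 to 214.0 FPKM in HFD, 221.3 to 366.7 in TJ) did not overlap either. Nor did the testis germ cell sums (25.2 to 1782.7 FPKM in HFD, 0.602 to 8.72 in TJ). No marker of these lists passed in limma. The part of these markers in the result was not tested.

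**Figure D2:**
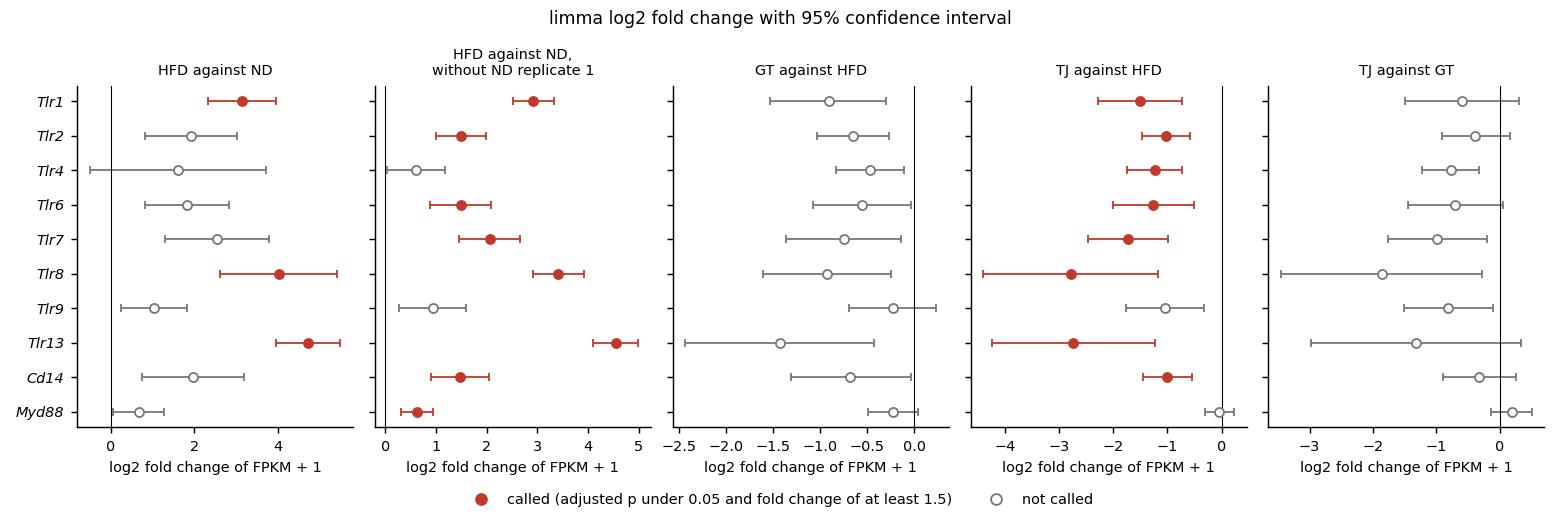
limma log2 fold change of FPKM + 1 with its 95% confidence interval for each of the 10 genes (rows) in the named comparisons (panels, each with its own horizontal range). Filled red points passed the threshold, which 3 genes did for HFD against ND, 8 without ND replicate 1, 0 for GT against HFD, 8 for TJ against HFD and 0 for TJ against GT.

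The GT and TJ groups, which shared the HFD libraries as their reference above, were then compared directly. None of the 10 genes passed the threshold in limma, where 0.00821% of 12187 genes passed downward and 0.139% upward. An unadjusted p under 0.05 was found for 2996 of the 12187 genes and for 4 of the 10. These were Tlr4, Tlr7, Tlr8 and Tlr9, whose TJ libraries were all below their GT libraries, a pattern found for 14.9% of all genes. Tlr8 differed by -1.86 (95% confidence interval -3.45 to -0.27), Tlr7 by -0.98 (-1.76 to -0.2), Tlr9 by -0.81 (-1.51 to -0.11) and Tlr4 by -0.77 (-1.22 to -0.33, adjusted p = 0.116). Without TJ replicate 2 the differences were -0.99 for Tlr8, -0.64 for Tlr7, -0.49 for Tlr9 and -0.61 for Tlr4, and with each library left out 1 to 7 of the 10 genes had an unadjusted p under 0.05. Doses of 0.25% and 3% (w/w) of different extracts are not matched, and a missed threshold does not show that they acted alike.

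Levels under the supplemented diets were also set beside the ND group. For 9 of the 10 genes every GT library was above every ND library, all but Tlr4, against 14.6% of 14249 genes, whereas for TJ this held for 4 (Tlr1, Tlr13, Cd14 and Myd88), against 12.5% of 14251 genes. No gene of the 10 passed in limma in either comparison, and neither did any other gene, 0.0% in both. An unadjusted p under 0.05 was reached by 7 of the 10 genes for GT and by 2 for TJ, and by 1508 of 14249 and 1532 of 14251 genes of the table. Tlr13 differed by 3.3 (95% confidence interval 2.0 to 4.59) between GT and ND and by 1.98 (0.17 to 3.79) between TJ and ND. Without ND replicate 1, again no gene of the 10 passed, and 8 for GT and 2 for TJ had an unadjusted p under 0.05, as had 3171 of 13306 and 3163 of 13314 genes. Tlr13 then differed by 3.12 (1.81 to 4.42) in GT and by 1.8 (-0.06 to 3.66) in TJ. Tlr4 differed from ND by 0.36 (-1.71 to 2.42) in TJ on the log2 scale, although its mean FPKM was lower, and by -0.64 without ND replicate 1. Tlr9 differed by -0.01 (-1.14 to 1.13) in TJ, and by 0.32 without TJ replicate 2.

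To see whether the 10 genes moved as far as the macrophage markers did, the mean log2(FPKM + 1) of the 10 markers was subtracted in each library and the test was repeated. Relative to these markers, 2 of the 10 genes fell further with TJ than the mean of the markers did, Tlr8 by 1.37 (SE 0.44, adjusted p = 0.00915) and Tlr13 by 1.32 (SE 0.42, adjusted p = 0.00884), where 0.289% of all genes did. Of the 10 markers themselves, 1 passed downward and 1 upward relative to this mean, with differences from -1.08 to 1.1. Myd88 rose relative to the markers by 1.39 ± 0.42 (adjusted p = 0.00674), as did 68.8% of all genes. The subtraction shifted the whole table, with a median log2 difference of 1.29 and 9409 of 12807 genes at an unadjusted p under 0.05. In HFD against ND these were -3.12 and 13552 of 14430. The adjustment over all genes therefore changed p-values little, and these adjusted p-values cannot be compared with those before the subtraction. The other 7 genes lay between -0.3 (Tlr7) and 0.43 (Cd14) and did not pass. The intervals were wide, for instance -0.88 to 0.71 for Tlr1 at -0.08. With Adgre1 and Csf1r alone as the reference, Tlr8 (-0.79, adjusted p = 0.24) and Tlr13 (-0.74, adjusted p = 0.266) did not pass and Myd88 did (1.96, adjusted p = 0.00695). Tlr13 and Myd88 also missed the threshold without HFD replicate 3 (-1.26, adjusted p = 0.0558, and 1.33, adjusted p = 0.0535) and with all 12 libraries in 1 fit (adjusted p = 0.0612 and 0.0643), where Tlr8 passed. When TJ replicate 2, the library lowest for all 10 genes, was left out, the differences were smaller, at -0.9 for Tlr8 and Tlr13 and 1.0 for Myd88, and all 3 passed.

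In HFD against ND, Tlr13 rose further than the mean of the markers, by 1.54 ± 0.47 (adjusted p = 0.0229), where 0.333% of all genes did so, and Tlr8 did not pass at 0.83 ± 0.34 (adjusted p = 0.0547). Of the 10 markers themselves, 2 passed upward and 1 downward relative to their mean, with differences from -1.88 to 1.68. Of the 10 genes, 6 fell behind the markers (Tlr2, Tlr4, Tlr6, Tlr9, Cd14 and Myd88), as did 93.0% of all genes, and Myd88 was the farthest behind at -2.52 ± 0.54. Without ND replicate 1, Tlr13 (1.97, adjusted p = 0.000264) and Tlr8 (0.83, adjusted p = 0.0273) both passed upward, where 0.622% of all genes did. Tlr13 did not pass without ND replicate 3 (1.39, adjusted p = 0.0649) or HFD replicate 1 (1.66, 0.0577), 2 (1.47, 0.0735) or 3 (1.48, 0.0827), at differences near that with all libraries. With a pseudocount of 0.1 in place of 1, Tlr13 (3.1) and Tlr8 (1.84, adjusted p = 0.0498) passed upward, 3 genes downward (Tlr9, Cd14 and Myd88) in place of 6, and Tlr1, at -0.04 with a pseudocount of 1, was at 1.1 (adjusted p = 0.0553). In that fit 56 of 14430 genes passed upward and 12190 downward. With the replicate block 2 of the 10 passed, both downward, as did 13321 of 14430 genes, and Tlr13 had an adjusted p of 0.0594. With Adgre1 and Csf1r as the reference Tlr13 did not pass (0.74, adjusted p = 0.403). In the remaining comparisons none of the 10 fell or rose relative to the markers, except Myd88, which was lower by 1.89 on the log2 scale in GT than in ND (adjusted p = 0.0352), though not with the replicate block (adjusted p = 0.0616), nor without ND replicate 3 (-2.1, adjusted p = 0.0679) or GT replicate 1 (-1.73, 0.124), 2 (-1.82, 0.122) or 3 (-2.12, 0.0549). When ND replicate 1 was left out, GT against ND had 3 genes past the threshold, Tlr13 upward (1.4, adjusted p = 0.0207, against 0.316% of all genes) and Tlr4 (-1.58) and Myd88 (-1.33) downward (against 88.2%), and TJ against ND had Tlr4 downward (-1.79, adjusted p = 0.0179, against 27.6%). With all libraries, the shares of all genes that fell relative to the markers there were 0.157% for GT against HFD, 0.0% for TJ against GT, 77.5% for GT against ND and 0.0% for TJ against ND.

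**Figure D3:**
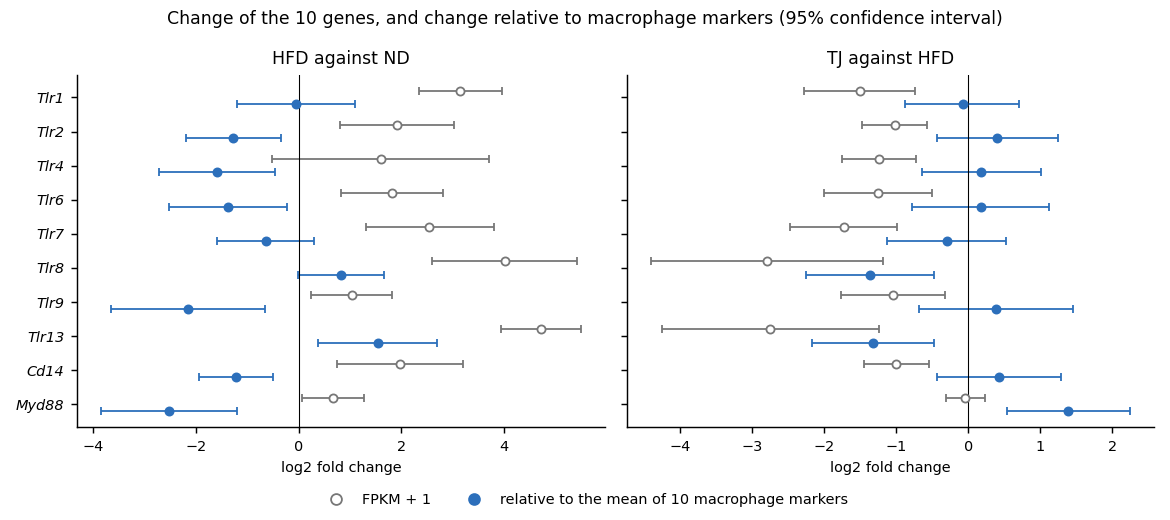
Log2 fold change of the 10 genes (rows) in HFD against ND and TJ against HFD, as FPKM + 1 (open grey) and after subtracting the mean of 10 macrophage markers in each library (filled blue), with 95% confidence intervals. With TJ, Tlr8 (-1.37) and Tlr13 (-1.32) stayed below 0 after the subtraction and Myd88 (1.39) moved above it.

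Other members of the pathway were taken from a list of 73 genes, of which 72 were in the table. Of these, 59 were tested in HFD against ND, 7 rose, where 1.73% of all genes did, and 0 fell, with a median log2 difference of 0.97 against 0.07 over all genes. Without ND replicate 1, 22 of 59 rose, where 11.0% of all genes did, and 1 fell (Irak2, by 0.73). For TJ against HFD 61 were tested, of which 4 rose, against 7.41% of all genes, and 14 fell, against 11.1%, with a median of -0.46 against -0.14 over all genes. Without TJ replicate 2, 3 of 61 rose, no larger a share than the 6.19% of all genes, and 11 fell, against 9.53%. For GT against HFD 1 of 60 fell, a share near the 1.81% of all genes, namely Il1rl1, a receptor that restrains TLR signals, by 0.63 (adjusted p = 0.0482), which did not pass without GT replicate 3, and for TJ against GT 1 of 61 rose, Socs1, an inhibitor of cytokine signals, by 1.39 (adjusted p = 0.0442).

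The other TLRs that were tested passed in no comparison. Tlr3, the receptor for double-stranded RNA, which signals without Myd88, had means of 4.32 ± 3.36 FPKM in ND, 6.15 ± 0.778 in HFD, 6.41 ± 0.391 in GT and 5.05 ± 1.59 in TJ. Tlr5, the flagellin receptor, had means of 2.87 ± 2.41 FPKM in ND, 2.71 ± 0.646 in HFD, 4.19 ± 0.657 in GT and 2.71 ± 0.358 in TJ, and its GT libraries were all above its HFD libraries (log2 difference 0.49, 95% confidence interval 0.08 to 0.9, limma adjusted p = 0.124). The log2 differences of Tlr3 and Tlr5 for TJ against HFD were -0.27 (95% confidence interval -0.77 to 0.23) and 0.01 (-0.45 to 0.46). Tlr11 and Tlr12 had means under 1 FPKM in HFD, GT and TJ and were not tested.

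Among accessory proteins, Cd180, a TLR-like surface protein, had means of 1.0 FPKM in ND, 34.9 in HFD and 8.28 in TJ, rose with the HFD by 4.22 (adjusted p = 0.0118) and fell with TJ by 2.24 (adjusted p = 0.0388). Hsp90b1, the chaperone that folds TLRs, fell with TJ by 0.99. Ly96, which forms the lipopolysaccharide-binding complex with Tlr4, measured 10.2 ± 2.65 FPKM in HFD and 10.4 ± 1.35 in TJ. Of the 5 other adaptors 4 were tested, and all 4 fell with TJ, against 11.1% of all genes, namely Pik3ap1 by 2.41, Ticam2 by 1.55, Tirap by 0.96 and Ticam1 by 0.73, whereas Myd88 did not. Without TJ replicate 2, 3 of the 4 passed, against 9.53% of all genes. Pik3ap1 also rose with the HFD, by 3.54 (adjusted p = 0.0157), and without ND replicate 1 Pik3ap1 and Cd180 passed at 3.33 and 3.94.

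Of 19 kinases and ubiquitin enzymes, 2 rose with the HFD, Btk by 2.89 and Ikbke by 2.36 (2.49 and 2.06 without ND replicate 1), against 1.73% of all genes, and 4 fell with TJ, against 11.1%, among them Btk by 1.38, Ikbke by 1.33 and Traf3 by 0.82, of which Btk and Ikbke also passed without TJ replicate 2. Of 8 transcription factors tested, none passed in HFD against ND, where the differences ran from -0.62 (Irf3) to 3.25 (Irf5, adjusted p = 0.0661, past the threshold at 2.6 without ND replicate 1). Rel, an NF-kB subunit, fell with TJ by 1.28 and Irf7, which drives type I interferon genes, rose by 0.79, and Rel, at -1.07, did not pass without TJ replicate 2 (adjusted p = 0.0531). With all libraries this was 1 of 8 each way, near the 11.1% of all genes that fell and the 7.41% that rose. None of 12 inhibitors passed in HFD against ND, where Nfkbib (-0.75) and Zc3h12a (1.78) were at the ends. Without ND replicate 1, 4 of the 11 inhibitors tested rose, against 11.0% of all genes, Zc3h12a by 1.29, Tnip1 by 1.18, Tnfaip3 by 0.95 and Il1rl1 by 0.92. Of the same 12, Zc3h12a (by 1.02) and Tnip1 (by 0.71) fell with TJ, against 11.1% of all genes, while Socs1 (by 1.14) and Sigirr (by 0.8) rose, against 7.41%. Without TJ replicate 2, Socs1 (1.14, adjusted p = 0.0666) and Sigirr (0.65, adjusted p = 0.0885) kept similar differences and did not pass.

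Of the 16 cytokines and other target genes, 7 were tested in HFD against ND and 3 rose, against 1.73% of all genes: Il1rn, the natural antagonist of the interleukin 1 receptor, by 5.67, the acute-phase protein gene Saa3 by 4.53 and the chemokine gene Ccl3 by 2.13, and they also passed without ND replicate 1 (5.51, 4.43 and 2.09). With TJ, 9 were tested, Ccl3 fell by 1.0 and Ccl5, another chemokine gene, rose by 0.76. This was 1 of 9 each way, near the 11.1% of all genes that fell and the 7.41% that rose. Saa3 measured 146.6, 36.5 and 177.1 FPKM in TJ against 101.0, 102.0 and 89.3 in HFD, and its difference of 0.02 became 0.72, past the threshold, without TJ replicate 2. Il1rn measured 29.2, 1.58 and 17.6 FPKM in TJ against 56.9, 58.2 and 74.3 in HFD and differed by -2.49 with all 6 libraries without passing (adjusted p = 0.0695), whereas without TJ replicate 2 it passed at the smaller difference of -1.43 (adjusted p = 0.012).

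**Figure D4:**
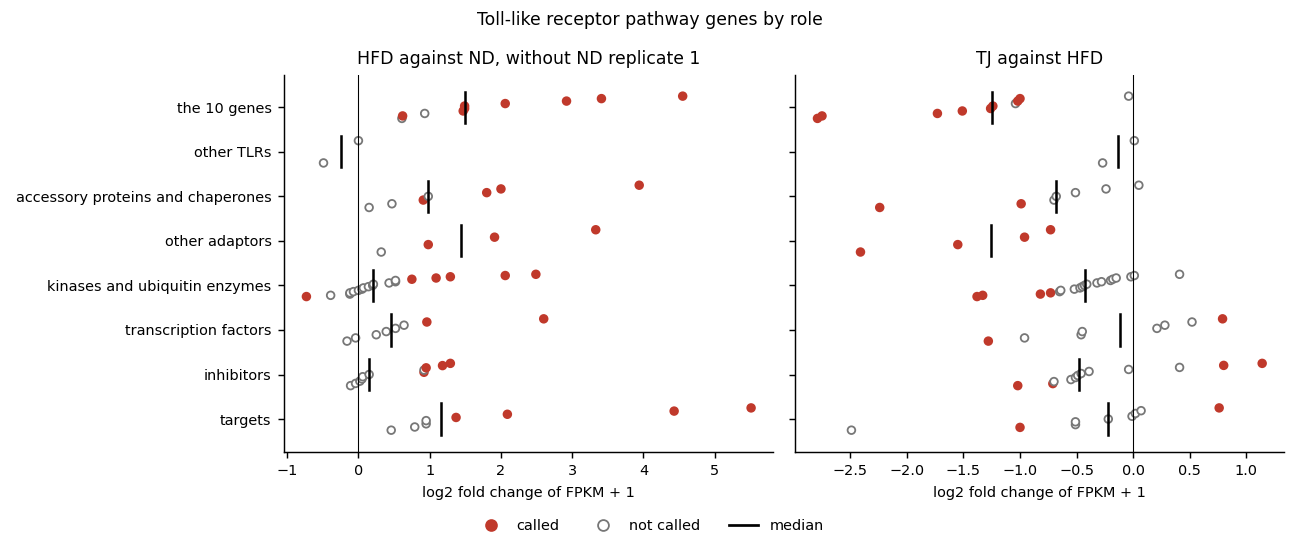
Log2 fold change of FPKM + 1 for the 10 genes and for the other pathway genes tested, by role (rows), in HFD against ND without ND replicate 1 and in TJ against HFD. Each point is a gene, filled red where it passed the threshold, and the bar is the median of its row, which for TJ was -1.25 for the 10 genes, -1.25 for the other adaptors and -0.12 for the transcription factors.

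The genes outside all lists whose profile over the 12 libraries was most like the mean of the 10 genes, by Pearson's r between log2(FPKM + 1) and the mean of the 10 z scores, were Rab7b (r = 0.996), Cd44 (0.995), Sla (0.995), Tbxas1 (0.994) and Plek (0.994), among 13935 genes with a median r of 0.183. The macrophage markers Adgre1 (0.991) and Csf1r (0.977) were close behind. Of the 10 genes themselves, Myd88 (0.789), Tlr4 (0.841) and Tlr9 (0.88) were the least like their common profile, and the other 7 lay between 0.962 (Cd14) and 0.988 (Tlr7). Each of the 10 is part of that mean, which raises its r beside that of an outside gene. The libraries of a group share its diet, so these values describe likeness over 12 points in 4 groups and carry no test.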

How the data were processed

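RNA of eWAT was sequenced as 12 libraries, 3 in each of the ND, HFD, GT and TJ groups. The authors filtered reads on base quality, mapped them with STAR and computed FPKM with Cufflinks 2.1.1, masking noncoding genes and correcting for multireads and fragment bias, and deposited these FPKM values, which are what was analysed here. The submitters' processing notes give STAR 2.4.0 and CASAVA 1.8.2, and the study's methods name another STAR version, Ensembl annotation and the human genome, although the identifiers are of mouse. The strand setting and sequencing counts were not given in the sources used here or not used, so precision rests on the spread between libraries.

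Symbols and coordinates came from GENCODE mouse release M21 (GRCm38), which named 22671 of 23474 identifiers. limma 3.58.1 in R 4.3.3 (lmFit, eBayes with a mean-variance trend) was run on log2(FPKM + 1) over all genes averaging 1 FPKM or more in the 6 libraries compared, and p-values were adjusted over all genes tested. Genes passed at an adjusted p under 0.05 and at least a 1.5-fold change, the thresholds of the study. The named genes are all 10 members and, per role and comparison, up to 3 pathway genes with the largest change among those that passed, plus those singled out in the text after their values were seen (Ly96, Saa3, and Il1rn and Irak2 without a library). Not every gene this rule covers is named. The relative test subtracted the library's mean of 10 macrophage markers. The members and lists were chosen with earlier results of these data known. Tests were tried on simulated data for TJ against HFD: of 12566 genes, 87 of 100 changed 4-fold and 49 of 100 changed 2-fold were called, with 6 unchanged genes called. The simulated noise was normal, and the changed genes were drawn from those with a mean log2(FPKM + 1) above 3. These shares therefore do not cover lower genes such as Tlr2, Tlr6 and Tlr9. Tables and figures were made with python 3.11.15, pandas 2.3.3, numpy 2.4.6, scipy 1.17.1 and matplotlib 3.10.9.

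Alternatives were quantile normalization, a pseudocount of 0.1, a filter at a mean of 5 FPKM or none, 1 fit for all 12 libraries, median-of-ratios scaling, the replicate number as a block, no trend, array weights, no fold change minimum, Adgre1 and Csf1r as the reference, and each library left out in turn. A fit over the 11 libraries other than ND replicate 1 was added after seeing the data. The replicate numbers were taken to pair libraries where the deviations of same-numbered libraries from their group means correlated over genes above 0.1 for every number, which held for HFD against ND (r = 0.547, 0.342 and 0.122) and GT against ND (0.219, 0.118 and 0.147). No source says what a number shares.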

Additional observations from a re-analysis of the deposited data

How the results depend on the processing

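The following counts are of the 10 genes that passed in limma. For HFD against ND (3), they were 1 with a pseudocount of 0.1 (121 of 14430 genes were higher), 8 with all 12 libraries in 1 fit, 9 with array weights, 0 with the replicate block and 8 in 1 fit over 11 libraries, and leaving out each library gave 0 to 8. For GT against HFD (0) they were 5 with array weights and 0 to 3 with a library left out, the 3 without GT replicate 1, where 732 of 12834 genes were lower. For TJ against HFD (8) they were 0 with no filter and 0 with all 12 libraries in 1 fit, where 9 and 8 genes had an unadjusted p under 0.05, and 0 to 9 with a library left out. For TJ against GT (0) they were 5 with array weights and 0 to 0 with a library left out. For GT against ND (0) they were 2 with all 12 libraries, 5 with array weights, 2 over 11 libraries and 0 to 1 with a library left out, the 1 without ND replicate 2. For TJ against ND (0) they were 3 with array weights, 1 over 11 libraries and 0 to 0 with a library left out, where 8 of the 10 genes were tested without TJ replicate 3, here and relative to the markers, because Tlr6 and Tlr9 had means under 1 FPKM. Beside these counts, array weights called 1388 of 14430 genes higher for HFD against ND, 939 of 12766 lower for GT against HFD, 567 of 12187 lower for TJ against GT, 763 of 14249 higher for GT against ND and 1284 of 14251 higher for TJ against ND. All 12 libraries in 1 fit called 1034 of 13935 genes higher in HFD and 151 in GT than in ND, and the fit over 11 libraries 1773, 621 and 1268 of 13120 higher for HFD, GT and TJ against ND.

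Relative to macrophage markers, HFD against ND (7) gave 2 with the replicate block and 2 to 8 with a library left out, with 2 without HFD replicate 1 or 3 and 4 without ND replicate 3. With the block and without those libraries, all that passed were lower. So were 13321 of 14430 genes with the block and 11708 of 14322 without ND replicate 3. Without HFD replicate 1 or 3 these were 10592 of 14525 and 9191 of 14560, in that order. TJ against HFD (3) gave 1 with Adgre1 and Csf1r as the reference, 1 with all 12 libraries and 1 to 3 with a library left out, the 1 without HFD replicate 3. GT against ND (1) gave 2 with Adgre1 and Csf1r, 2 with a pseudocount of 0.1, 6 with all 12 libraries, 0 with the replicate block, 4 over 11 libraries and 0 to 3 with a library left out. TJ against ND (0) gave 4 with all 12 libraries, 1 over 11 libraries and 0 to 1 with a library left out. The 6 and the 4 with all 12 libraries were lower, as were 12873 and 9033 of 13935 genes. For TJ against ND, the 1 over 11 libraries was lower too, as were 6700 of 13120 genes. GT against HFD and TJ against GT gave 0 to 0. The counts over the whole table moved as well, and TJ against HFD gave 184 genes lower with no filter and 0 with all 12 libraries, against 1417. The cause of these shifts was not tested.

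Single genes that reversed were Tlr9 in GT against HFD (0.05 after quantile normalization), Myd88 in TJ against HFD (0.10 with median-of-ratios scaling and 0.09 after quantile normalization), Tlr4 in TJ against ND (-0.41 with array weights, -0.64 over 11 libraries and without ND replicate 1, and between -0.64 and 0.96 with each library left out) and Tlr9 in TJ against ND (0.44 after quantile normalization, 0.15 without ND replicate 3 and 0.32 without TJ replicate 2, and between -0.13 and 0.32 with each library but TJ replicate 3 left out, where it was not tested). None of these passed. Over all alternatives, the log2 difference for HFD against ND ran from 4.55 to 6.51 for Tlr13 (adjusted p 0.000351 to 0.132), from 3.41 to 5.26 for Tlr8 (0.000695 to 0.286) and from 0.61 to 2.2 for Tlr4 (0.0819 to 0.823), and for TJ against HFD from -3.21 to -1.93 for Tlr13 (0.00228 to 0.126) and from -3.35 to -1.92 for Tlr8 (0.00181 to 0.131). With the replicate block the other counts of the 10 genes that passed were as given, while over the whole table TJ against HFD gave 429 genes higher and 769 lower against 949 and 1417, and GT against HFD 1 and 4 against 233 and 231. Of the 10 genes, those at an unadjusted p under 0.05 then numbered 6 in GT against HFD (8 without the block), 4 in GT against ND (7) and 1 in TJ against ND (2). Over the whole table they numbered 3524 (3744), 1450 (1508) and 1302 (1532). The pairing check is given with the processing. Median-of-ratios scaling moved the median of all genes in TJ against HFD from -0.14 to -0.02 and in HFD against ND from 0.07 to -0.07, and the calls of the 10 genes kept their number. Depth is known only approximately, so no counting error is given for low values such as those of ND.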
